A study of Homo sapiens with 6 samples.

Results

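The genes of cholesterol and fatty acid synthesis were examined in 143B cells, a human osteosarcoma cell line, with or without deletion of CNTNAP4, a neurexin-related membrane protein. They were 32 named genes of the 54308 listed, picked by symbol for their known function, with earlier results of these data known. They comprised 5 regulators, 7 genes of the mevalonate arm, 11 of the sterol arm, 2 of sterol transport, 3 of fatty acid synthesis and 4 of desaturation and elongation. All 32 had a value in all 6 libraries. Bulk RNA sequencing had been done on 3 vector control (VC) and 3 CNTNAP4 knockout (KO) libraries, each said by the submitters to be a biological replicate. The KO cells carried a plasmid expressing Cas9 and a guide against CNTNAP4, and the VC cells the control vector plasmid. The study also lists a guide sequence for its negative control plasmid, and transfected cells of both groups were sorted. The contrast need therefore not be one of Cas9 against no Cas9. The labels give 48 h of transient transfection, while the study's methods describe sorted single-cell colonies, of which 2 KO colonies were expanded. Which colony each KO library came from is not given in the sources used here, so an effect of the deletion and a difference between colonies cannot be told apart. Both groups were grown in medium with fetal bovine serum, which itself contains lipids.

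Cells make cholesterol from acetyl-CoA, through mevalonate and squalene to lanosterol and then through a chain of sterol enzymes. The transcription factors encoded by SREBF1 and SREBF2 drive these genes and those of fatty acid synthesis. When membrane cholesterol is low, SCAP escorts the SREBP proteins to the Golgi apparatus, where they are cleaved, and when it is high, INSIG1 and INSIG2 hold SCAP in the endoplasmic reticulum. Cleavage acts on the protein, so an RNA level of SREBF1 or SREBF2 does not measure active factor. Oxysterols act through another route, the LXR receptors, which raise exporters such as ABCA1.

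The values were log2 signals that had been quantile-normalized across the libraries, and a gene was called when the adjusted p of limma's moderated linear model was under 0.05 over the 19306 genes tested. By that rule 32.9% of all tested genes were called, 13.1% higher and 19.8% lower in KO, and across all tested genes the log2 fold change had a median of -0.13. The first principal component carried 63.5% of the variance and separated the groups, with KO replicate 1 at 20.8, KO replicate 3 at 48.9 and KO replicate 2 at 73.8 and the VC libraries between -48.4 and -46.7. CNTNAP4 itself had a value only in VC replicate 3 (log2 signal -7.18), so its RNA in these libraries gave no check of the knockout. The study reports other checks of the deletion in its clones, by qRT-PCR, western blot and a T7 endonuclease I assay. All 8 osteoblast and mesenchymal markers had values in every library, and 6 of them were called, COL1A1, SPARC, ALPL and PDGFRB higher in KO and COL1A2 and TWIST1 lower. VIM lay between 10.3 and 10.9, and COL1A2, between -5.72 and -4.59, was near the bottom of the scale.

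Markers of other cell types moved too, in both directions. Of 5 epithelial markers KRT8 was called higher (log2 fold change 0.59) and EPCAM lower (-0.67), with CDH1 valued in 1 library only, and of 5 leukocyte markers CD68 was called higher (1.66, adjusted p = 0.00963), with PTPRC below -4.35 in every library. Of 6 adipocyte markers FABP4 was called higher (1.12, adjusted p = 0.0235), PPARG (-0.05) and PLIN1 (-0.92) were not called, CIDEC had values only in the 3 VC libraries and ADIPOQ had none. None of the 5 hepatocyte markers was called, with APOA1 at -1.55 (adjusted p = 0.0710), SERPINA1 at 1.28 (adjusted p = 0.159) and ALB at 0.08 (adjusted p = 0.948). TTR and CYP7A1 were without a value. None of the 4 endothelial markers was called either. The summed linear signal of the list went from 4.42 to 4.73 in VC and from 4.84 to 5.61 in KO for adipocytes. It went from 21.7 to 23.0 and from 52.3 to 88.1 for leukocytes, and from 577 to 640 and from 553 to 609 for epithelial cells. The leukocyte sum was almost all CD68, with log2 signals between 4.43 and 6.46, while every other leukocyte value was below -3.29. Its rise is therefore that of 1 gene. KRT18, between 8.63 and 9.06, made the largest part of the epithelial sum, and PPARG, between 1.55 and 2.07, that of the adipocyte sum. The sums for endothelial and hepatocyte markers stayed below those of all 3 lists and overlapped between the groups. The part of these markers in the results below was not tested.

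The enzymes were lower in KO as far as they were called, and both genes of sterol transport were higher. Of the 32 genes, 18 were called, 4 higher and 14 lower, against the 32.9% of all tested genes given above. That share is not matched for signal. A fit on only the 50% of genes with the higher mean signal kept 28 of the 32 genes and called 20. More than 50% of all genes in that fit were called too, well above 32.9% but a smaller share than among the 28. The difference between these shares was not tested. An excess over 32.9% can therefore not be read as particular to these genes. The 4 called higher were SREBF2, INSIG2, STARD4 and ABCA1. Of the 25 enzymes, 13 were called, all of them lower, and 24 had a negative log2 fold change. The median log2 fold change was -0.39 over the enzymes and -0.35 over all 32 genes, beside -0.13 over all tested genes. The 3 KO and the 3 VC values did not overlap in 22 of the 32 genes, beside 59.3% of all genes with 6 values. The called decreases were small, between 1.26-fold and 1.79-fold, and only STARD4 among the called genes changed by 2-fold or more. In bulk RNA, a change in the make-up of the culture and a change in RNA per cell cannot be told apart.

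**Figure D1:**
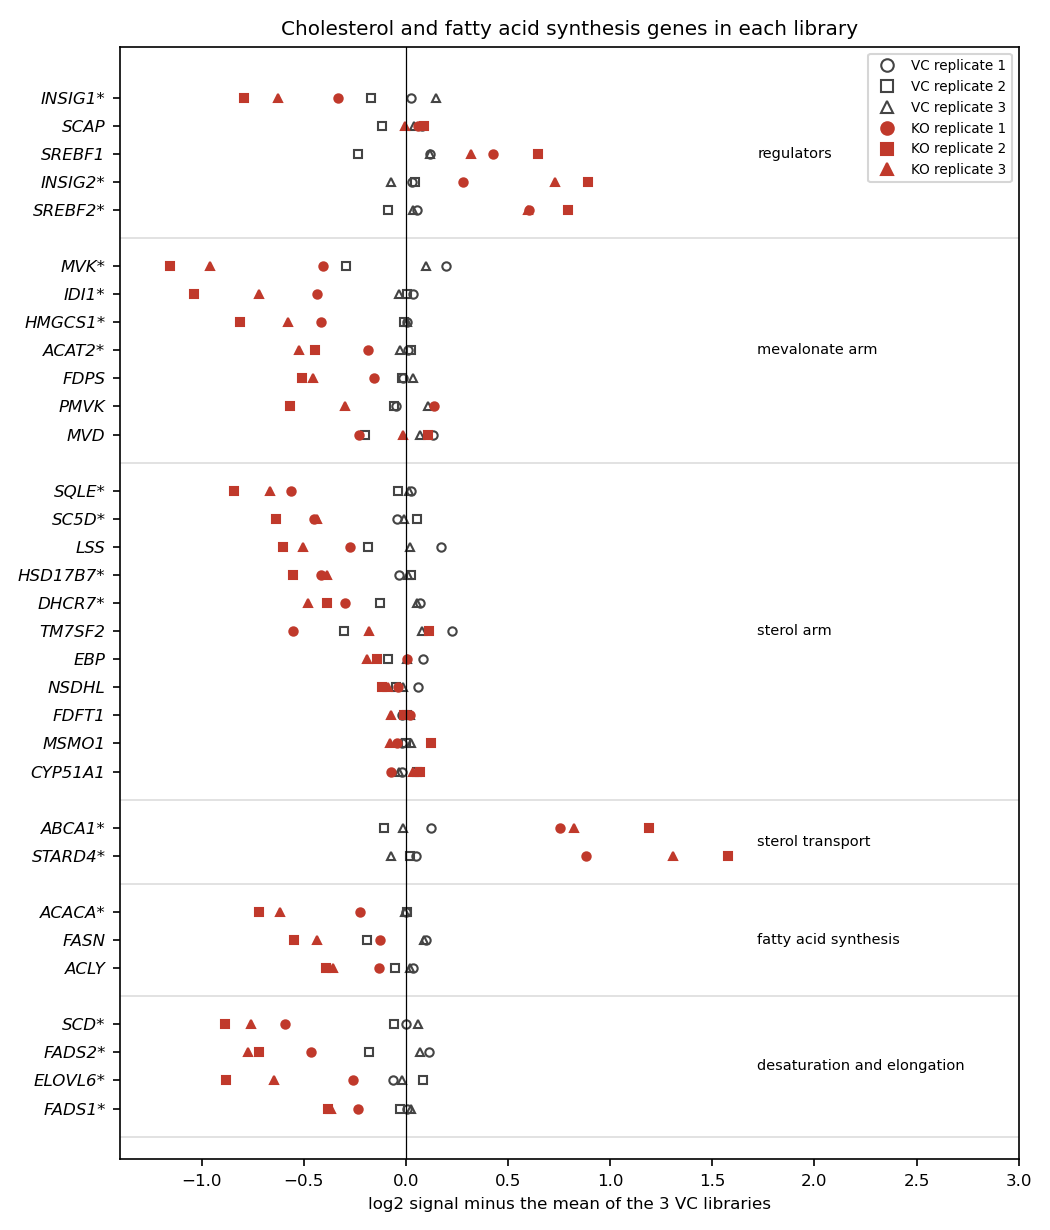
Log2 signal of each gene minus its mean over the 3 VC libraries (x axis), by role, with 1 point per library (open, VC; filled, KO); an asterisk marks the 18 genes with adjusted p under 0.05. The KO values of the called enzymes lie left of all VC values, those of STARD4, ABCA1, SREBF2 and INSIG2 lie right of them, and KO replicate 1 is the KO library nearest to VC in 15 of the 18.

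Within KO, replicate 1 lay nearest to the VC mean in 15 of the 18 called genes. The same held for 74.3% of all called genes with 6 values. SREBF2, HSD17B7 and SC5D, in which KO replicate 3 was the nearest, made the remainder. Averaged over the 25 enzymes, the deviation from each gene's own mean was 0.23 in VC replicate 1, 0.13 in VC replicate 2 and 0.22 in VC replicate 3. The corresponding KO values were -0.06, -0.28 and -0.23. All 3 KO libraries thus lay below all 3 VC libraries on this average, KO replicate 1 least so.

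**Figure D2:**
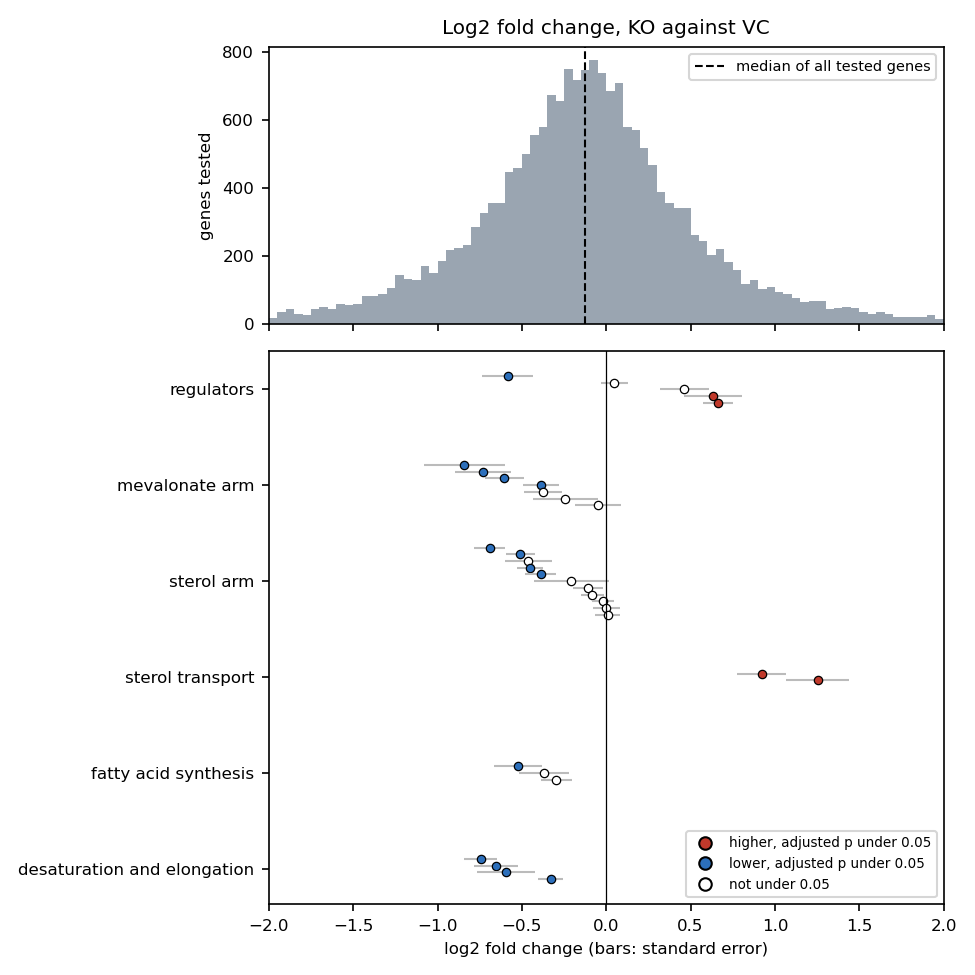
Upper panel, number of tested genes (y axis) by log2 fold change of KO against VC (x axis, cropped at -2 and 2), with the median of all 19306 genes at -0.13 dashed; lower panel, log2 fold change with its standard error for each of the 32 genes by role. The called enzymes (blue) lie between -0.84 and -0.33, inside the bulk of the upper distribution.

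Because SREBP proteins bind promoters of these genes, the 250 bases before the RefSeq transcription starts (GRCh38.p14) were searched on both strands for the sterol element core TCACCCCAC, its looser form TCACNCCAC, the NF-Y box CCAAT and the Sp1 box GGGCGG. Entries existed for 28 of the 32 genes, with 38 windows in all, since some genes have several starts. There was no entry for ACAT2, FASN, FDFT1 and SQLE. The core occurred in 1 window of the 38, that of SREBF2, on the strand of the gene and 133 to 125 bases before the start. Among all 35116 promoters 0.362% held the core and 0.883% the looser form. The NF-Y box was present in 23 of the 38 windows (60.5%), compared with 32.01% of all promoters, and the Sp1 box in 34 (89.5%), compared with 42.6%. A match is a description of the letters and not of a bound site, and overlapping windows of a gene share bases. The NF-Y box was in 12 of the 20 windows of genes called lower and in 9 of the 13 windows of genes not called. Among genes called higher it was in 2 of the 5 windows, those of SREBF2 and STARD4, and the windows of INSIG2 and ABCA1 held none. The windows below show the core in SREBF2 and the boxes in another gene that rose, STARD4, and in a regulator and 2 enzymes that fell. They are written 5′ to 3′ on the strand of the gene, from chr22:41832855-41833104 (plus strand), chr5:111512536-111512785 (minus), chr7:155297628-155297877 (plus), chr5:43313413-43313662 (minus, the upstream of its 2 starts) and chr10:100346983-100347232 (plus). Capitals mark the motifs on either strand, and the last base is the base before the start.
SREBF2: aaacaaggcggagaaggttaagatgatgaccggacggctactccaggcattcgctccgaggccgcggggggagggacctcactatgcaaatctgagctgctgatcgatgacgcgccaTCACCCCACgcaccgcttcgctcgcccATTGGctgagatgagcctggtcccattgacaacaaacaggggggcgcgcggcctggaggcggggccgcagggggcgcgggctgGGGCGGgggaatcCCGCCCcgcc
STARD4: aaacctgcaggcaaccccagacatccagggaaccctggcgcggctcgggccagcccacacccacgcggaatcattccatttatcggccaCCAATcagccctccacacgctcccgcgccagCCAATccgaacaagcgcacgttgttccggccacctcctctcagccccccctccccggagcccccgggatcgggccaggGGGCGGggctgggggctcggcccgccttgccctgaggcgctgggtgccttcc
INSIG1: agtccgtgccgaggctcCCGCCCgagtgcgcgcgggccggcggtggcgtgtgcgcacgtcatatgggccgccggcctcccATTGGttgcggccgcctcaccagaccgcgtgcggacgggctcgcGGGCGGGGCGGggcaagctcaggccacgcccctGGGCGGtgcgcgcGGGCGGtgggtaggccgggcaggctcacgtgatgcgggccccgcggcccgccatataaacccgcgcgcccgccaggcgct
HMGCS1: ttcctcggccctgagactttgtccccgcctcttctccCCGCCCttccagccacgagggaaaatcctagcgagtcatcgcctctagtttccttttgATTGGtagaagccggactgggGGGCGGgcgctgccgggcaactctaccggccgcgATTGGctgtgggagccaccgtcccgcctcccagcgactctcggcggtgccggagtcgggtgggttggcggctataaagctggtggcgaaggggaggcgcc
SCD: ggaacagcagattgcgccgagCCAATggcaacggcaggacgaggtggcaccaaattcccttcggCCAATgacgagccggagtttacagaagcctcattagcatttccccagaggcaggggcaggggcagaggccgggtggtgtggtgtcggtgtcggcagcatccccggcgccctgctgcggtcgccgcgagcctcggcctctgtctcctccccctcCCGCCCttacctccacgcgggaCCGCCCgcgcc

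Among the regulators, SREBF2 and INSIG2 rose, INSIG1 fell, and SREBF1 and SCAP were not called. The share called was 60%, beside 32.9% of all tested genes. SREBF2, the main factor for cholesterol synthesis, had log2 signals of 4.21, 4.06 and 4.19 in VC and 4.76, 4.95 and 4.75 in KO. Every KO library exceeded every VC library by a wide margin relative to the spread within groups, with SDs of 0.078 for VC and 0.11 for KO (n = 3 each). The log2 fold change was 0.66 with a standard error (SE) of 0.090 (adjusted p = 0.0110). SREBF2 lies on chromosome 22, where the median log2 fold change of the 239 genes in the upper 50% of mean signal was 0.31, higher than on any other chromosome. Relative to that median SREBF2 was higher by 0.36, and the part of the chromosome in its change was not tested.

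SREBF1, the main factor for fatty acid synthesis, gave 3.93, 3.57 and 3.92 in VC and 4.23, 4.45 and 4.13 in KO. The groups did not overlap, but VC replicate 2 lay well below the other controls and the gene missed the threshold (log2 fold change 0.46, SE 0.14, adjusted p = 0.0581). It was under 0.05 in 7 of the 9 alternative settings, among them median-centred libraries (adjusted p = 0.0356) and library weights, which lowered the log2 fold change to 0.24. It was not called in any of the 6 fits with a library left out (adjusted p from 0.0817 to 0.129). SCAP, the escort, had overlapping groups and a log2 fold change of 0.05 (95% interval -0.16 to 0.26, adjusted p = 0.670). Its sign turned to -0.04 with library weights, so no direction can be given for it.

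The INSIG genes, which retain SCAP, moved in opposite directions. INSIG1, itself a classical SREBP target, read 3.05, 2.86 and 3.17 in VC and 2.69, 2.24 and 2.40 in KO, all KO values lying below all VC values. Its log2 fold change was -0.58 with a standard error of 0.15 (adjusted p = 0.0387). INSIG2, known to be less dependent on SREBP, read 1.56, 1.58 and 1.46 in VC and 1.81, 2.43 and 2.27 in KO. It rose by 0.63 with a standard error of 0.17 (adjusted p = 0.0424), KO replicate 1 standing nearest to the controls. Both calls held in only 1 of the 6 fits that left out a library, the fit without KO replicate 1, and their highest adjusted p in those fits was 0.112 for INSIG1 and 0.118 for INSIG2, without VC replicate 3.

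The same values were also set against each other as differences between paralogues inside each library, where an additive scaling cancels. The change of such a difference is that of the 2 fold changes and is no further evidence, and the pairs were chosen with earlier results known. The difference INSIG1 minus INSIG2 was 1.49, 1.28 and 1.71 log2 units in VC and 0.88, -0.19 and 0.13 in KO. Its mean fell from 1.49 ± 0.22 to 0.28 ± 0.55 (SD, n = 3 each), a change of -1.22, with no overlap between the groups. The difference SREBF1 minus SREBF2 was -0.35 ± 0.13 in VC and -0.55 ± 0.068 in KO, and the groups were only just apart, since the value of VC replicate 2 was -0.4909 and that of KO replicate 2 -0.4917. FADS1 minus FADS2 was 1.60 ± 0.14 in VC and 1.92 ± 0.088 in KO. Each of these 3 differences had a two-sided exact permutation p of 0.1 and an adjusted p of 0.1 over the 3, which is the smallest value that 3 against 3 libraries allow, so the test could not pass 0.05. Whether the signals were scaled by transcript length is not stated, so the size of a difference between 2 genes is not read as a ratio of their transcripts.

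**Figure D3:**
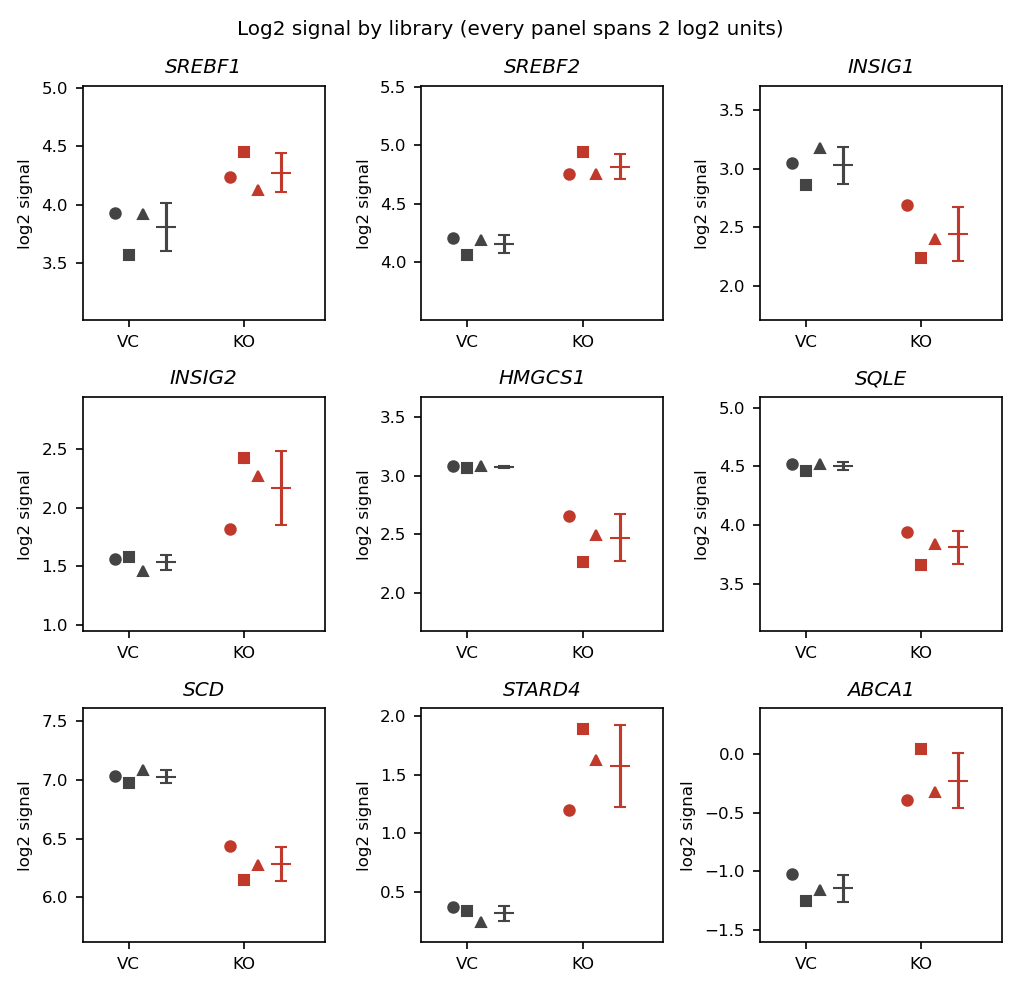
Log2 signal (y axis, each panel spanning 2 units) of 9 genes in the 3 VC and 3 KO libraries (circle, square and triangle for replicates 1, 2 and 3), with the mean and SD of each group beside the points. In all 9 genes the groups do not overlap; SREBF2 and SCD show tight groups, and INSIG2 and STARD4 show a wide KO group with replicate 1 nearest to VC.

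In the mevalonate arm, which builds isoprenoid units from acetyl-CoA, 4 of the 7 genes fell and none rose. This is 57.1% called, beside 32.9% called and 19.8% called lower of all tested genes, shares that are not matched for signal. The median log2 fold change was -0.39, beside -0.13 over all tested genes. HMGCS1, which makes HMG-CoA, was nearly constant in VC at 3.08, 3.06 and 3.08 and read 2.66, 2.26 and 2.50 in KO. The spread was 0.010 in VC and 0.20 in KO (SD, n = 3), and the log2 fold change was -0.60 with a standard error of 0.12 (adjusted p = 0.0200). IDI1, the isomerase of isopentenyl diphosphate, behaved likewise, with 3.08, 3.05 and 3.01 in VC and 2.61, 2.01 and 2.33 in KO (log2 fold change -0.73, adjusted p = 0.0277). The controls of both genes were closely grouped, and the KO libraries were ordered 1, 3, 2 from high to low.

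ACAT2, the cytosolic thiolase at the entry of the arm, read 4.81, 4.82 and 4.77 in VC and 4.61, 4.36 and 4.27 in KO (log2 fold change -0.39, adjusted p = 0.0448). Its exons overlap those of TCP1 and SOD2 on the opposite strand. TCP1 was called lower too (-0.45, adjusted p = 0.0460), and the change of SOD2 is not given here. MVK, mevalonate kinase, had the largest decrease of the 32 genes and also wide groups, with 1.53, 1.04 and 1.43 in VC and 0.92, 0.17 and 0.37 in KO. Its log2 fold change was -0.84 with a standard error of 0.24 (adjusted p = 0.0477), and the gap between VC replicate 2 and KO replicate 1 was small beside the spread. MVK shares exonic bases with MMAB on the other strand, which was called lower as well (-0.41, adjusted p = 0.0231).

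The remaining genes of the arm were not called. FDPS, farnesyl diphosphate synthase, read 4.44, 4.43 and 4.48 in VC and 4.29, 3.94 and 3.995 in KO. The groups did not overlap, and the adjusted p of 0.0549 was just above the threshold (log2 fold change -0.37). PMVK, the next kinase, gave -0.24 (95% interval -0.73 to 0.24) and MVD, the decarboxylase, -0.05 (-0.39 to 0.30). For both, KO and VC overlapped and the intervals admit decreases as large as that of FDPS.

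The sterol arm split between 4 genes that fell and 7 that were not called, with none higher and a median of -0.21; the share called, 36.4%, was near the 32.9% of all tested genes. SQLE, squalene epoxidase and a rate-limiting step, read 4.52, 4.46 and 4.52 in VC and 3.94, 3.66 and 3.83 in KO. All KO libraries lay far below every control relative to the spread within groups, and the log2 fold change was -0.69 with a standard error of 0.093 (adjusted p = 0.0109). SQLE lies on chromosome 8, whose 322 genes in the upper 50% had a median of -0.27, and its log2 fold change minus that median was -0.42. The part of the chromosome in its change was not tested. FDFT1, squalene synthase, is on the same chromosome and read 4.33, 4.36 and 4.37 in VC against 4.37, 4.34 and 4.28 in KO (log2 fold change -0.02, adjusted p = 0.822).

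SC5D, the sterol desaturase, fell from 4.07, 4.17 and 4.10 to 3.66, 3.48 and 3.68 (log2 fold change -0.51, SE 0.085, adjusted p = 0.0152). HSD17B7, a sterol ketone reductase, fell from 2.50, 2.56 and 2.54 to 2.12, 1.98 and 2.15 (-0.45, SE 0.075, adjusted p = 0.0152). These genes had tight groups on both sides and no overlap. A pseudogene of HSD17B7, HSD17B7P2, had values in all libraries too, between -1.60 and -0.95, and reads could have been split between them. DHCR7, which makes cholesterol in the last step, fell from 4.45, 4.26 and 4.44 to 4.09, 3.996 and 3.90 (-0.39, adjusted p = 0.0315).

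Of the genes not called, LSS, lanosterol synthase, came nearest to the threshold with 3.37, 3.01 and 3.21 in VC and 2.92, 2.59 and 2.69 in KO (log2 fold change -0.46, adjusted p = 0.0528). CYP51A1, the lanosterol demethylase, gave 0.01 (95% interval -0.18 to 0.20), MSMO1, the methylsterol oxidase, 0.00 (-0.20 to 0.20) and NSDHL, a sterol dehydrogenase, -0.08 (-0.26 to 0.09). EBP, the sterol isomerase, gave -0.11 (-0.33 to 0.11). The intervals of FDFT1 (-0.18 to 0.14), CYP51A1, MSMO1, NSDHL and EBP all ended short of that of SQLE, which ran from -0.93 to -0.46, but overlapped that of the called gene DHCR7 (-0.62 to -0.16), and that of EBP also overlapped those of HSD17B7 (-0.64 to -0.26) and SC5D (-0.72 to -0.30). The differences between these genes were not tested. TM7SF2, a sterol reductase, had the widest groups of the arm, between -0.89 and -0.36 in VC and between -1.14 and -0.48 in KO (-0.21, interval -0.77 to 0.35), and its exons overlap those of VPS51, which was called higher (0.63, adjusted p = 0.0293). Direction was not stable for FDFT1, CYP51A1, MSMO1 and NSDHL, whose sign turned with another scaling of the libraries or with a library left out.

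Both genes of sterol transport rose, beside 13.1% called higher of all tested genes, and they had the largest increases of the 32. STARD4, which carries cholesterol between membranes, read 0.37, 0.34 and 0.24 in VC and 1.20, 1.89 and 1.62 in KO. The log2 fold change was 1.25 with a standard error of 0.19, which is 2.39-fold (adjusted p = 0.0130). KO replicate 1 stood apart from the other KO libraries but still well above the highest control. STARD4 is known as an SREBP target, like many of the enzymes that fell. Its exons overlap those of STARD4-AS1 on the opposite strand, which was not called (-1.44, adjusted p = 0.0759).

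ABCA1, the exporter of cholesterol to lipoproteins, read -1.02, -1.26 and -1.16 in VC and -0.39, 0.04 and -0.33 in KO. These are low signals, yet the groups were separated by more than the spread of either one (VC SD 0.12, KO SD 0.24, n = 3 each). The log2 fold change was 0.92 with a standard error of 0.14, which is 1.89-fold (adjusted p = 0.0137). Calls of STARD4 and ABCA1 held in 5 of the 6 fits with a library left out, and leaving out VC replicate 3 gave adjusted p of 0.0530 for STARD4 and 0.0559 for ABCA1.

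In fatty acid synthesis, ACACA fell and the other 2 genes were not called, a share of 33.3% beside 32.9% of all tested genes. ACACA, acetyl-CoA carboxylase, which commits acetyl-CoA to fatty acids, read 3.54, 3.55 and 3.54 in VC and 3.31, 2.82 and 2.92 in KO. The controls were nearly identical (SD 0.0060, n = 3) and the KO group was wide (SD 0.26), giving a log2 fold change of -0.52 with an SE of 0.14 (adjusted p = 0.0433). ACLY, which makes cytosolic acetyl-CoA from citrate, read 6.20, 6.11 and 6.18 in VC and 6.03, 5.77 and 5.81 in KO without overlap (-0.30, adjusted p = 0.0630). FASN, fatty acid synthase, overlapped through VC replicate 2, with 6.26, 5.98 and 6.25 in VC and 6.04, 5.62 and 5.73 in KO (-0.37, 95% interval -0.74 to 0.00497, adjusted p = 0.108). All 3 estimates were negative.

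All 4 genes of desaturation and elongation fell, beside 19.8% called lower of all tested genes, a share not matched for signal. Their median log2 fold change was -0.62, beside -0.13 over all tested genes. SCD, the desaturase that makes oleate, had 7.03, 6.97 and 7.09 in VC and 6.44, 6.14 and 6.27 in KO. Its fall of 0.75 on the log2 scale, a 1.68-fold decrease, had a standard error of 0.099 (adjusted p = 0.0106), the lowest adjusted p of the 32 genes. ELOVL6, which lengthens palmitate, read 3.14, 3.28 and 3.18 in VC and 2.94, 2.32 and 2.55 in KO (log2 fold change -0.60, adjusted p = 0.0489). In ELOVL6, KO replicate 1 was the library nearest to the controls, and the call held only without that library among the fits with a library left out.

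The neighbouring desaturases of polyunsaturated fatty acids both fell. FADS2 read 3.68, 3.39 and 3.64 in VC and 3.10, 2.85 and 2.79 in KO (log2 fold change -0.65, SE 0.13, adjusted p = 0.0208). FADS1 read 5.17, 5.14 and 5.19 in VC and 4.93, 4.78 and 4.80 in KO, a smaller change with tighter groups (-0.33, SE 0.074, adjusted p = 0.0278). Exons of FADS1 and FADS2 overlap on opposite strands, and FADS2 also shares exonic bases on its own strand with FEN1, a DNA replication nuclease that was not called (-0.75, adjusted p = 0.0737). Exons of SREBF1, SREBF2, FDPS, IDI1 and CYP51A1 also overlap another listed gene on the opposite strand, whose change is not given here. The library kit keeps the strand, but whether the counting used it is not given in the sources used here.

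**Figure D4:**
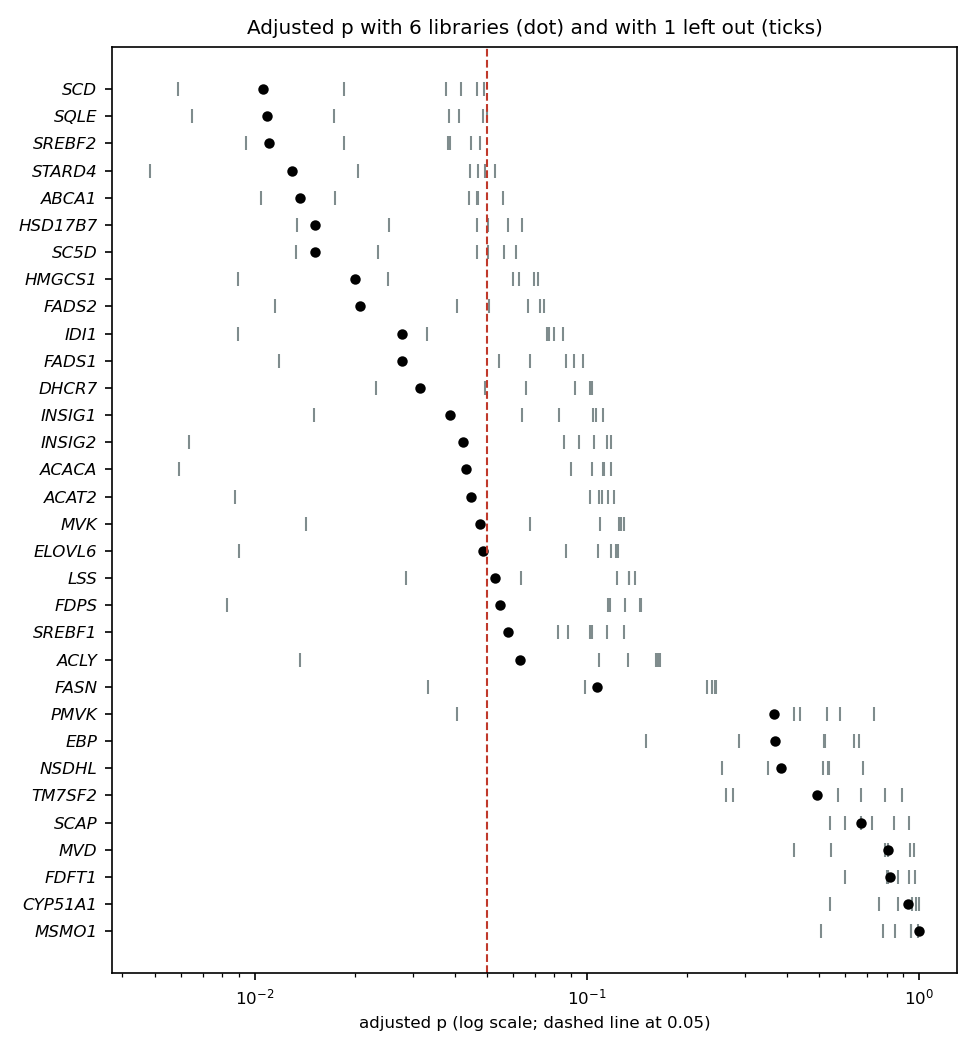
Adjusted p of each of the 32 genes (x axis, log scale) from limma with all 6 libraries (dots) and in the 6 fits with 1 library left out (ticks); the dashed line is 0.05. The ticks of SCD and SREBF2 all lie left of the line, and those of 7 called genes lie right of it except for the fit without KO replicate 1.

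Leaving out a library changed most calls but turned the direction of none of the 18 called genes. Without VC replicates 1, 2 and 3 in turn, 5, 7 and 2 of the 32 genes were called, and without KO replicates 1, 2 and 3, 23, 9 and 7 were called. Only SREBF2 and SCD were called in all 6 fits, with highest adjusted p of 0.0477 and 0.0490. SQLE, STARD4 and ABCA1 were called in 5 fits and lost the call without VC replicate 3, SQLE at 0.05003. HSD17B7 and SC5D were called in 3 fits, those without a KO library. HMGCS1 and IDI1 were called in 2 fits, without KO replicate 1 or 2, and DHCR7 and FADS2 in 2, without VC replicate 2 or KO replicate 1. INSIG1, INSIG2, ACAT2, MVK, ACACA, FADS1 and ELOVL6 were called only without KO replicate 1.

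The wider pathway was described with 8 further lists, chosen by function with earlier results known, of which 117 of 119 listed genes were tested. Of these 54 were called, 23 higher and 31 lower, beside 32.9% of all tested genes. With median-centred libraries 43 were called and the balance turned, 24 higher and 19 lower. The median log2 fold change over the 117 genes was -0.13, as it was over all tested genes. Of the 28 genes named from these lists, 4 were called in all 6 fits with a library left out, namely NPC1, ELOVL2, HACD1 and G0S2. CYB5R3 and LPIN1 were called in 5 of those fits and TMEM97, LRP1, DGAT2 and GPAM in 3. The 10 genes UBE2G2, RNF139, LBR, GGPS1, SOAT1, ABCG1, MID1IP1, ACADS, CPT1C and HADH were called in 2. The other 8, SEC24C, MBTPS1, FNTB, SCARB1, CH25H, LPCAT3, ME1 and SLC25A20, were called only without KO replicate 1.

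Among genes that process SREBP or sense sterols, 4 of 11 were called (36.4%, beside 32.9% of all tested genes), 2 in each direction. SEC24C, a coat protein of the vesicles that carry SCAP, rose by 0.42 (adjusted p = 0.0367) and MBTPS1, the protease that cuts SREBP first, rose by 0.31 (adjusted p = 0.0300). UBE2G2 and RNF139, which take part in sterol-regulated degradation in the endoplasmic reticulum, fell by 0.98 (adjusted p = 0.0281) and 0.27 (adjusted p = 0.0325). RNF139 is a gene of chromosome 8 and was not called with median-centred libraries.

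Of 10 other sterol synthesis genes, 1 rose and 4 fell, beside 13.1% and 19.8% of all tested genes. CYB5R3, a cytochrome b5 reductase that feeds electrons to sterol enzymes, rose by 0.62 (adjusted p = 0.0135), and it lies on chromosome 22 like SREBF2. TMEM97, a sterol-binding membrane protein, read 3.96, 3.94 and 3.97 in VC and 3.49, 3.16 and 3.30 in KO (log2 fold change -0.64, adjusted p = 0.0143). LBR, a nuclear envelope protein with sterol reductase activity, fell by 0.61 (adjusted p = 0.0201).

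In the isoprenoid branches, which use the products of the mevalonate arm for prenylation and related steps, 6 of 12 genes fell (beside 19.8% of all tested genes) and none rose, with a median of -0.32. FNTB, a farnesyltransferase subunit, fell by 1.10 (adjusted p = 0.0307) and lies on chromosome 14, where the median log2 fold change was -0.35. GGPS1, which makes geranylgeranyl diphosphate, fell by 0.80 (adjusted p = 0.0365).

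Of 15 genes of cholesterol uptake, transport and esterification, 6 rose and 4 fell, 66.7% beside 32.9% of all tested genes. NPC1, which exports cholesterol from lysosomes, read 2.89, 2.82 and 2.91 in VC and 3.62, 4.13 and 3.92 in KO. It was 2.02-fold higher (log2 fold change 1.02, SE 0.14, adjusted p = 0.0115), with the groups far apart relative to their spread. LRP1, a lipoprotein receptor, rose by 0.91 (adjusted p = 0.0159). SCARB1, the receptor of high-density lipoprotein, fell by 0.71 (adjusted p = 0.0360) and SOAT1, which esterifies cholesterol for storage, by 0.52 (adjusted p = 0.0170).

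Of 9 LXR pathway genes, 4 rose and 1 fell (55.6%, beside 32.9% of all tested genes), although the median was -0.25. ABCG1, a cholesterol exporter related to ABCA1, read -0.70, -1.11 and -0.72 in VC and 0.18, 1.13 and 0.97 in KO. It was 3.03-fold higher (log2 fold change 1.60, adjusted p = 0.0173), with all KO libraries above all controls. CH25H, which makes an oxysterol, rose by 2.65 (adjusted p = 0.0273) from signals near the bottom of the scale, between -6.46 and -4.94 in VC, and it was not called with 1 added to the linear signal. LPCAT3, a phospholipid acyltransferase known as an LXR target, fell by 0.25 (adjusted p = 0.0368), and was not called with median-centred libraries.

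Among 27 other fatty acid synthesis genes, 3 rose and 5 fell, and the share called, 29.6%, was below the 32.9% of all tested genes. ME1, malic enzyme, a source of NADPH, rose by 0.44 (adjusted p = 0.0427) and MID1IP1, which promotes polymerization of acetyl-CoA carboxylase, by 0.40 (adjusted p = 0.0197). ELOVL2, an elongase of polyunsaturated fatty acids, fell by 1.02 (adjusted p = 0.00983), and HACD1, a dehydratase of elongation, by 0.76 (adjusted p = 0.00951).

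In glycerolipid synthesis and lipid droplets, 3 of 15 rose and 5 fell (53.3%, beside 32.9% of all tested genes). G0S2, an inhibitor of triglyceride lipolysis, read 5.21, 5.02 and 5.22 in VC and 6.39, 6.67 and 6.31 in KO, a 2.48-fold increase (adjusted p = 0.00789). LPIN1, a phosphatidate phosphatase, rose by 0.57 (adjusted p = 0.0111). DGAT2, which makes triglyceride, fell by 0.95 (adjusted p = 0.0227) and GPAM, the mitochondrial glycerophosphate acyltransferase, by 0.54 (adjusted p = 0.0143). Of 18 genes of fatty acid oxidation, 4 rose and 4 fell (44.4%, beside the same 32.9%), with a median of -0.06. ACADS, a short-chain dehydrogenase, rose by 1.19 (adjusted p = 0.0203) and SLC25A20, the carnitine carrier, by 0.39 (adjusted p = 0.0395). HADH fell by 0.46 (adjusted p = 0.0219), and CPT1C fell by 1.34 (adjusted p = 0.0335) from low signals, between -4.48 and -3.89 in VC, and was not called with 1 added to the linear signal.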

How the data were processed

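RNA of 3 VC and 3 CNTNAP4 KO libraries of 143B cells was sequenced from a stranded mRNA kit. The deposited values are log2 signals that the authors had quantile-normalized across the 6 libraries. The submitters' processing notes name CASAVA, STAR, Partek and GRCh38.p13, the study's methods also CLC Genomics, and the linear unit is not given in the sources used here. The table holds no counts, so depth is unknown and no counting interval was made. Between 20333 and 21041 genes had a value per library. Groups came from the sample titles.

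The members and the lists were chosen with earlier results of these data known. A gene needed 2 or more values in VC and in KO and was tested with limma 3.58.1 in R 4.3.3 (two-sided moderated linear model, Benjamini-Hochberg adjustment over 19306 genes, threshold 0.05) and checked on simulated data. Intervals are 95% intervals of that model. Within-library differences were compared by exact permutation. All 32 members were named, and of each further list at most 2 called genes in each direction, those with the largest change among called genes with 6 values. Other genes named were markers, CNTNAP4 and genes whose exons overlap a member. Chromosomes were matched by symbol in RefSeq, exon overlaps were read from GENCODE, and promoters came from RefSeq GRCh38.p14. The alternatives were genes with 6 values, the 50% of genes with the higher mean signal, median-centred libraries, repeated quantile normalization, 1 added to the linear signal, trend and robust moderation, no moderation, library weights, a replicate block and leaving out each library.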

Additional observations from a re-analysis of the deposited data

How the results depend on the processing

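Of the 18 called genes of cholesterol and fatty acid synthesis, none changed direction under any alternative. The number called was 11 without moderation (8 lower), and 22 were called lower with library weights, a fit that gave KO replicate 3 a weight of 86.5 and all others between 0.13 and 1.501. Leaving out each library gave 2 to 23 called, 1 to 4 higher and 1 to 19 lower. The replicate numbers did not pair the libraries (correlations of same-numbered deviations 0.02, 0.01 and -0.01); with the replicate block 2 members were called (SQLE and SCD), 0 higher and 2 lower. For the further lists, 54 called became 96 with library weights (62 lower) and 5 with the replicate block (2 higher, 3 lower). There were 13 higher without moderation and 19 lower with median-centred libraries, and leaving out each library gave 5 to 66 called, 3 to 25 higher and 2 to 41 lower. ACAT2 and ELOVL6 were not called with median-centred libraries. FDPS and LSS were each called in 6 of the 9 settings that keep all libraries. With a library left out they were called in only 1 of the 6 fits, that without KO replicate 1. Their direction did not change.

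Sign changes touched only genes not called. With median-centred libraries, which moved the median of all genes from -0.13 to -0.04, the log2 fold changes were 0.0370 for MVD, 0.0628 for FDFT1, 0.0837 for MSMO1 and 0.00132 for NSDHL. Quantile normalization again gave 0.00874 for FDFT1 and 0.0355 for MSMO1, 1 added to the linear signal gave 8.70e-05 for MSMO1, and library weights gave -0.0389 for SCAP. Leaving out each library in turn gave log2 fold changes from -0.00925 to 0.0882 for SCAP, from -0.147 to 0.0460 for MVD, from -0.0420 to 0.00439 for FDFT1, from -0.0203 to 0.0524 for CYP51A1 and from -0.0609 to 0.0387 for MSMO1. The cause was not tested. The depth of the libraries is unknown, so no limit from counting can be given.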
